A study of Mus musculus with 6 samples.

Results

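The chaperonin genes of mouse leukemia and lymphoma cells are described here across 3 cell lines with and without FGFR inhibition. The 10 genes were taken by symbol from a deposited expression table of 17169 entries: the 8 subunits of TRiC (Tcp1, Cct2, Cct3, Cct4, Cct5, Cct6a, Cct7 and Cct8) and the 2 mitochondrial chaperonin genes (Hspd1 and Hspe1). All 10 had 1 entry and all 10 passed the filter on low values. The lines BBC, ZNF and BCRF8C (cultures BBC2, ZNF112 and BCRF8C in the labels' protocol) came from bone marrow of Balb/c mice with SCLL (stem cell leukemia and lymphoma), in which FGFR1 fusion kinases drive a cancer of blood cells. The groups were 3 libraries of cells kept for 24 h with BGJ398 (infigratinib, an inhibitor of FGFR kinases) and 3 libraries of cells kept with the solvent DMSO, 1 per line and agent. The doses were 30 nM for BBC, 3 nM for ZNF and 1.5 nM for BCRF8C if the protocol gives them in the order of its lines, and dose cannot be told apart from line. No label names repeat cultures, and each line stands for its own origin only.

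TRiC, also called CCT, is the ATP-driven chaperonin of the cytosol. It is made of stacked rings in which each of its different subunits has a fixed place, and it encloses and folds actin, tubulin and many proteins with WD repeats, which the helper complex prefoldin can deliver to it. Hspd1 encodes HSP60, the chaperonin of the mitochondrial matrix, and Hspe1 encodes HSP10, the lid that closes its chamber over imported proteins. Growing cells usually hold large amounts of both systems, and heat shock factor 1 is a known activator of chaperonin genes under protein stress.

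The stretches of DNA before the chaperonin starts are shown because the mitochondrial pair shares a start region in RefSeq and because letters matching motifs of known regulators lie there. The first stretch separates 1 of the 2 RefSeq starts of Hspd1 from that of Hspe1, the second lies upstream of a Cct2 start and the third upstream of the Cct7 start. All are RefSeq sequence of GRCm38.p6, at chr1:55087933-55088147 on the plus strand, chr10:117063376-117063475 on the minus strand and chr6:85451305-85451504 on the plus strand. Capitals mark heat shock element units (GAA or TTC, in spaced arrays) in the first and second stretches and the CCAAT box, read here on the other strand, in the third.
Between Hspd1 and Hspe1: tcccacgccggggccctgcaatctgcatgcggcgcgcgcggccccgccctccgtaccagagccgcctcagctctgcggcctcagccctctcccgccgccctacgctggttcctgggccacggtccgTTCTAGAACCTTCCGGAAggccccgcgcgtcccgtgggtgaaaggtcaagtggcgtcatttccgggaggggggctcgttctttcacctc
Upstream of Cct2: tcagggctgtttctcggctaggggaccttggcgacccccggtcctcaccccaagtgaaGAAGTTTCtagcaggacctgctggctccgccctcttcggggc
Upstream of Cct7: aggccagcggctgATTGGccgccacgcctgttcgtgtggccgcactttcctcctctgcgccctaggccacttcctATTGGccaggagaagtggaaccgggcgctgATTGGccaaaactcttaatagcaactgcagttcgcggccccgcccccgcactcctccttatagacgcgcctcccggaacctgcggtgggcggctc

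RefSeq windows of 300 bases around a start were found for 9 of the 10 genes, in 12 windows, and Cct4 was not matched. Hspd1 has 2 RefSeq windows, and 1 of them shares 285 of 300 bases with the Hspe1 window on the opposite strand, so that these starts point away from each other. The other Hspd1 window lies beyond the Hspe1 start. A run of 3 heat shock element units (TTC, GAA and TTC with 2 bases between each, searched on both strands) was found in the shared DNA of Hspd1 and Hspe1, and in 0.603% of all 32851 windows. The shorter pair GAANNTTC, which the longer run contains, was found for Cct2, Hspd1 and Hspe1, and in 7.86% of all windows. The CCAAT box was present in 5 of the 12 windows (Tcp1, Cct3, Cct6a, Cct7 and the other Hspd1 window), near the share of 37.4% over all windows. CACGTG, the E-box that MYC and related factors bind, was found in the other Hspd1 window alone and in 7.15% of all windows. These matches describe letters in a window.

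The values were FPKM (fragments scaled to transcript length and to the mapped fragments of the library). Depth is unknown. The 14232 genes that averaged 1 FPKM or more had a median of 4.53, 6.47 and 4.92 FPKM with BGJ398 in BBC, ZNF and BCRF8C, against 9.95, 8.36 and 9.03 FPKM with DMSO, so every change below is given beside that of all genes. The blood cell marker Ptprc was present in each library, at 39.5 to 101 FPKM with BGJ398 and 86.1 to 176 with DMSO. Coro1a, another of the 4 blood markers, was near 0 in BCRF8C, at 2.85 FPKM with BGJ398 and 1.38 with DMSO. Of the B-lineage markers, Igll1 had 252 FPKM with BGJ398 and 546 with DMSO in BBC, and Igll1, Cd79b and Vpreb1 were listed at 0 in all libraries of ZNF and BCRF8C. Every entry at 0 with 1 agent in ZNF or BCRF8C was at 0 with the other too (3185 and 1640 entries). Such a 0 may not be a measured absence. In these lines Cd79a, Pax5 and Ebf1 had 1.017 to 6.48 FPKM with BGJ398, against 0.0369 to 0.454 FPKM with DMSO. The 4 T-lineage markers with an entry summed to 406 FPKM with BGJ398 and 622 with DMSO in ZNF, and 1 of them, Cd8a, rose (1.89, 20.3 and 1.96 FPKM with BGJ398 in BBC, ZNF and BCRF8C, against 0.880, 7.34 and 0.0886 FPKM with DMSO, limma adjusted p = 0.0427). The 3 myeloid markers with an entry summed to 5.02 to 6.94 FPKM with BGJ398 and 0.0488 to 6.67 with DMSO. The 3 markers of stroma, endothelium and epithelium summed to 14.96 to 45.0 FPKM with BGJ398, against 14.7 to 78.5 with DMSO, and 1 of them, the collagen gene Col1a1, rose (4.39, 1.24 and 7.66 FPKM with BGJ398, against 0.941, 0.336 and 0.0109 FPKM with DMSO, limma adjusted p = 0.0449). Of the 14232 genes, 941 rose in limma at an adjusted p under 0.05, and 0 genes passed with the trend on expression level removed. Genes of low level rose as a class. At a mean log2(FPKM + 1) near 1.25 the median log2 ratios were 0.32, 0.60 and 0.96 in BBC, ZNF and BCRF8C. Near 1.75 they were -0.21, 0 and 0.08. Whether the marker shifts bear on the chaperonin genes was not tested.

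All 10 chaperonin genes were lower with BGJ398 than with DMSO in all 3 lines. TRiC subunits together summed to 275, 1117 and 318 FPKM with BGJ398 in BBC, ZNF and BCRF8C, against 1834, 2317 and 1798 FPKM with DMSO, which is 6.67-fold, 2.07-fold and 5.66-fold lower. Hspd1 and Hspe1 together summed to 34.0, 376.8 and 224 FPKM with BGJ398, against 437, 717 and 1261 FPKM with DMSO. All 10 fell in the test across lines (limma, adjusted p from 0.0348 to 0.0397), as did 30.2% of all genes tested, with 36.8% passing in either direction. With BBC left out 0 members passed (limma adjusted p from 0.235 to 0.257, 2 at an unadjusted p under 0.05), as did 0 of all 14232 genes. With BCRF8C left out 1 member passed, Hspd1, beside 1648 of all genes. With ZNF left out all 10 members passed, beside 4974 of all genes. All 10 had a ratio below 0 in each line, as had 55.7% of all genes. In these bulk libraries, fewer cells of a type and less RNA per cell cannot be told apart.

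**Figure D1:**
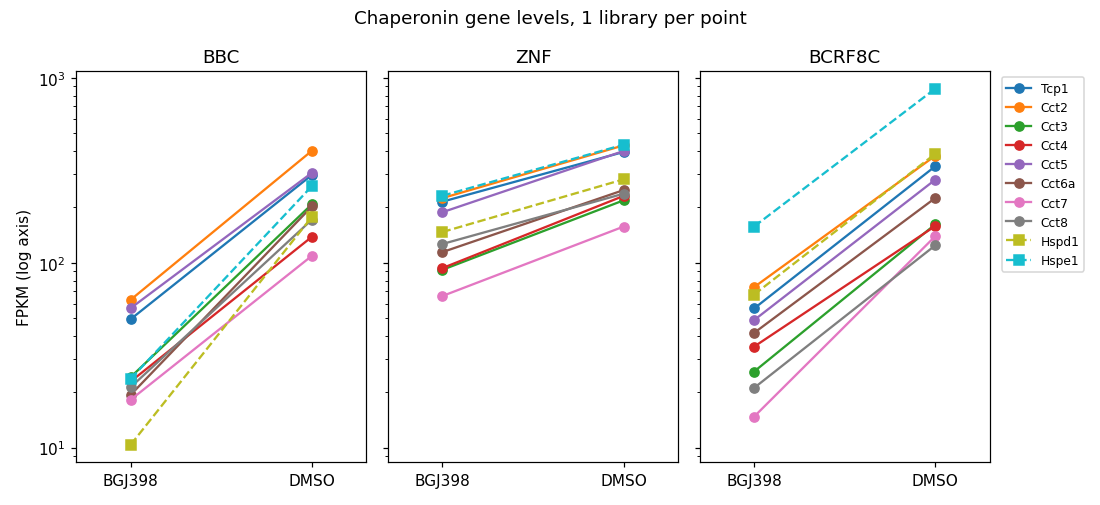
Level of each chaperonin gene in FPKM (log axis) with BGJ398 and with DMSO, 1 panel per line and 1 library per point; circles are TRiC subunits and squares Hspd1 and Hspe1. Every gene is lower with BGJ398, with the smallest drops in ZNF, and Hspd1 in BBC reaches the lowest value, 10.4 FPKM.

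The 4 TRiC subunits with the highest levels in DMSO were Cct2, Tcp1, Cct5 and Cct6a. Cct2, the beta subunit (ENSMUSG00000034024, chromosome 10, 116488054 to 116500870 in NCBIM37, as are all loci of genes below), had 63.1, 223 and 73.8 FPKM with BGJ398 in BBC, ZNF and BCRF8C, against 403, 431 and 379 FPKM with DMSO. The BGJ398 libraries did not overlap with the DMSO libraries, and ZNF kept the highest level with BGJ398. Tcp1, the alpha subunit for which the complex is named (ENSMUSG00000068039, chromosome 17, 13104215 to 13133268), had 49.6, 214 and 56.6 FPKM with BGJ398, against 298, 397 and 332 FPKM with DMSO. The groups did not overlap, and the change was again smallest in ZNF. Cct5, the epsilon subunit (ENSMUSG00000022234, chromosome 15, 31520555 to 31531602), had 56.8, 188 and 48.9 FPKM with BGJ398, against 306, 402 and 281 FPKM with DMSO. Its groups were also apart, with BCRF8C lowest on either agent. Cct6a, a zeta subunit (ENSMUSG00000029447, chromosome 5, 130293315 to 130321696), had 19.3, 114 and 41.7 FPKM with BGJ398, against 201, 247 and 224 FPKM with DMSO. Its DMSO levels were close to each other while its BGJ398 levels were far apart, with BBC lowest, at 10.4-fold below DMSO.

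The other 4 subunits were the less abundant ones in DMSO. Cct3, the gamma subunit (ENSMUSG00000001416, chromosome 3, 88101038 to 88125689), had 24.1, 91.6 and 25.8 FPKM with BGJ398, against 207, 217 and 161 FPKM with DMSO. The groups did not overlap, and BBC and BCRF8C had nearly the same level with BGJ398. Cct4, the delta subunit (ENSMUSG00000007739, chromosome 11, 22890519 to 22903780), had 22.8, 93.5 and 35.2 FPKM with BGJ398, against 138, 229.6 and 158 FPKM with DMSO. The groups did not overlap, and ZNF was highest on either agent. Cct7, the eta subunit (ENSMUSG00000030007, chromosome 6, 85396804 to 85418471), had 18.2, 66.1 and 14.7 FPKM with BGJ398, against 109, 157 and 139 FPKM with DMSO. It was the least abundant subunit in 5 of the 6 libraries, Cct8 lying below it in BCRF8C with DMSO, and its ratio in BCRF8C, 9.45-fold lower with BGJ398, exceeded that of every other member in that line. Cct8, the theta subunit (ENSMUSG00000025613, chromosome 16, 87454948 to 87496118), had 21.3, 126 and 21.0 FPKM with BGJ398, against 171, 236 and 124 FPKM with DMSO. It was the only member whose groups overlapped, since ZNF with BGJ398 lay just above BCRF8C with DMSO. For the other 9 members each BGJ398 library lay below each DMSO library, as was the case for 35.1% of all genes tested.

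The mean log2 ratio of BGJ398 over DMSO of the TRiC subunits on the log2(FPKM + 1) scale ran from -1.98 ± 0.91 for Cct2 to -2.30 ± 0.98 for Cct7 (SD, n = 3 lines). Cct3 averaged -2.30 ± 0.94 and Cct6a -2.27 ± 1.11, while Tcp1 averaged -1.996 ± 0.96, Cct4 -1.99 ± 0.64, Cct5 -2.001 ± 0.79 and Cct8 -2.12 ± 1.08. The limma standard errors of the 8 subunits were 0.44 to 0.55, and the smallest adjusted p, 0.0348, was shared by Cct3, Cct4 and Cct7.

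The mitochondrial genes spanned a wider range than TRiC. Hspd1 (ENSMUSG00000025980, chromosome 1, 55134679 to 55148151) had 10.4, 147 and 67.3 FPKM with BGJ398 in BBC, ZNF and BCRF8C, against 177, 282 and 388 FPKM with DMSO. The groups did not overlap, and the line with the lowest Hspd1 level was BBC on either agent. The mean log2 ratio was -2.47 ± 1.51 with a limma standard error of 0.64 (adjusted p = 0.0366). Hspe1 (ENSMUSG00000073676, listed at the same locus as Hspd1) had 23.6, 230.3 and 157 FPKM with BGJ398, against 259.6, 435 and 873 FPKM with DMSO. These groups did not overlap either, although ZNF with BGJ398 came near BBC with DMSO. The mean log2 ratio was -2.26 ± 1.26 with a limma standard error of 0.62 (adjusted p = 0.0390). The log2 ratios of Hspd1 and Hspe1 were -3.97 and -3.41 in BBC, -0.94 and -0.91 in ZNF, and -2.51 and -2.47 in BCRF8C. Both thus changed most in BBC, where Hspd1 was 17.0-fold lower with BGJ398.

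Each line on its own has 1 library per agent, so the ratios within a line have no replicate check and no p-value. Shares of genes at least 2-fold lower within a line, here and below, are over genes averaging 1 FPKM or more in its 2 libraries. These were 14765, 12417 and 13814 genes in BBC, ZNF and BCRF8C. Medians of all genes, and the share for all 3 lines, are over the 14232 genes tested. In BBC all 10 members were at least 2-fold lower with BGJ398, as were 45.0% of all genes, and the members' median log2 ratio was -2.80 against -0.91 for all genes. In ZNF 5 members were at least 2-fold lower (Cct3, Cct4, Cct5, Cct6a and Cct7), against 16.3% of all genes, and the medians were -1.02 and -0.37. In BCRF8C all 10 were at least 2-fold lower, against 43.5% of all genes, and the medians were -2.50 and -0.76. The 5 members that passed in ZNF were at least 2-fold lower in all 3 lines, as were 10.1% of all genes.

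The members are abundant genes, and abundant genes as a class had lower ratios. The median mean log2 ratio over lines was -2.19 for the 10 members and -0.69 for all genes as deposited. Within each line the ratio followed the expression level, and once that trend was removed the medians were -0.62 and 0.03. After quantile normalization, which gives all libraries the same distribution, they were -0.82 and -0.09, and after median-of-ratios scaling, which divides each library by 1 factor, -1.45 and -0.07. On none of these scales did a member pass the test (limma adjusted p from 0.206 to 0.436 with the trend removed, 0.178 to 0.311 after quantile normalization and 0.0527 to 0.0677 after median-of-ratios scaling). Of all genes 0% (0 genes) passed with the trend removed, 0.0211% (3 genes) after quantile normalization and 0.0281% (4 genes) after median-of-ratios scaling. At an unadjusted p under 0.05 there were 2 members and 3084 genes with the trend removed, 3 members and 3340 genes after quantile normalization, and 10 members and 5764 genes after median-of-ratios scaling. On the quantile-normalized scale all 10 members were below 0 in all 3 lines, as were 32.5% of all genes, and with the trend removed 8 were, as were 25.4% of all genes. After median-of-ratios scaling all 10 were below 0 in all 3 lines, as were 35.3% of all genes.

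**Figure D2:**
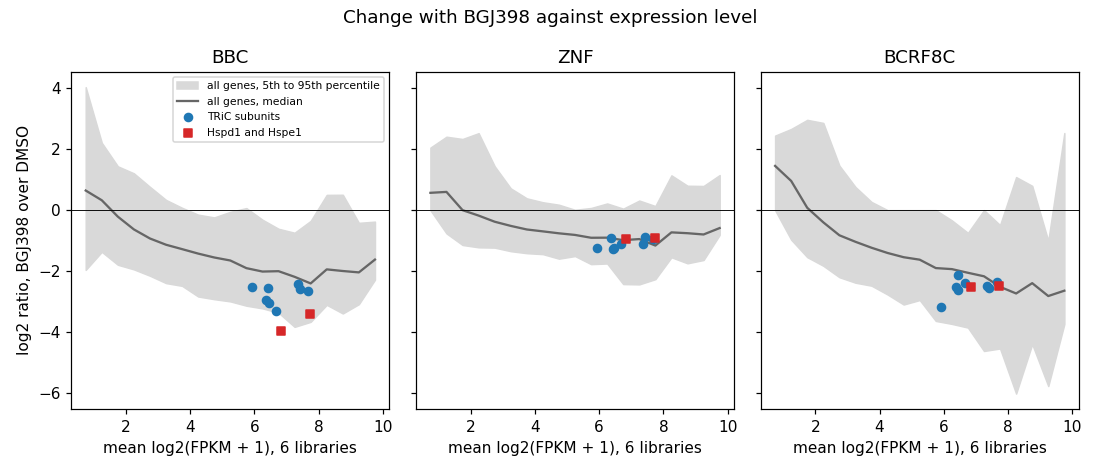
Log2 ratio of BGJ398 over DMSO against the mean log2(FPKM + 1) of the 6 libraries, 1 panel per line, with the median (line) and the 5th to 95th percentile (grey) of all tested genes by level, TRiC subunits as circles and Hspd1 and Hspe1 as squares. In ZNF the members lie close to the median of genes of their level, and in BBC Hspd1 lies farthest below it, at -3.97.

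With the trend removed, the members' ratios differed between lines. In BBC all 10 were below 0, from -0.60 for Cct5 to -2.30 for Hspd1, and 5 stayed at least 2-fold lower, against 11.7% of all genes. Hspd1 in BBC stood at percentile 1.71 of all genes on that scale, Hspe1 at 3.66 and Cct6a at 4.10. In ZNF the members ran from -0.35 for Cct4 to 0.03 for Cct8, and none was at least 2-fold lower, against 5.56% of all genes. In BCRF8C they ran from -0.11 for Hspe1 to -1.46 for Cct7, and Cct7 alone was at least 2-fold lower, against 13.8% of all genes. After quantile normalization 9, 0 and 2 members were at least 2-fold lower in BBC, ZNF and BCRF8C, against 17.5%, 8.50% and 21.4% of all genes. After median-of-ratios scaling 10, 1 and 10 were, against 13.9%, 7.81% and 19.6%. No test of the difference between lines is possible with 1 library per line and agent.

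The rank of a gene among all tested genes of its library does not depend on how that library is scaled. In DMSO the 10 members lay between percentiles 93.2 and 98.9 in every line. With BGJ398 they lay between percentiles 74.5 and 95.6 in BBC, 94.0 and 97.8 in ZNF, and 82.1 and 98.7 in BCRF8C. Hspd1 in BBC was at percentile 74.5 with BGJ398 and 95.7 with DMSO, and Cct7 in BCRF8C was at 82.1 with BGJ398 and 94.8 with DMSO. Hspe1 in BCRF8C barely moved, at 98.7 with BGJ398 and 98.9 with DMSO. The median rank of the 10 members was 88.9, 96.8 and 95.3 with BGJ398 in BBC, ZNF and BCRF8C, against 96.2, 97.0 and 96.9 with DMSO.

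**Figure D3:**
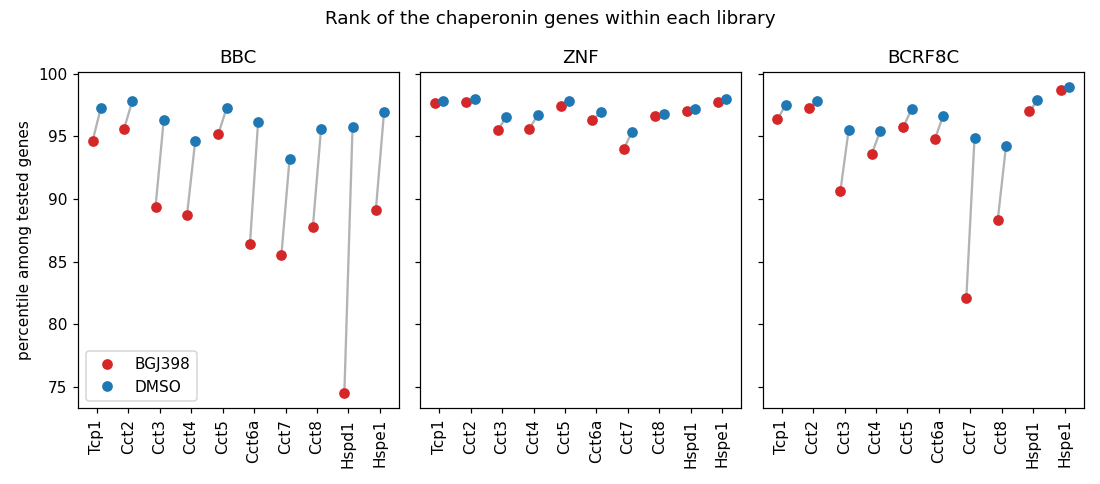
Percentile of each chaperonin gene among all tested genes of the same library, with BGJ398 on the left of each pair and DMSO on the right, 1 panel per line. All points of ZNF lie at 94.0 or above, while Hspd1 in BBC with BGJ398, at 74.5, and Cct7 in BCRF8C with BGJ398, at 82.1, are the lowest of their panels.

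The levels of the TRiC subunits with BGJ398 followed those with DMSO, with shifts in some shares. Over the 8 subunits, log2 levels with BGJ398 and with DMSO correlated at 0.901, 0.981 and 0.927 in the lines BBC, ZNF and BCRF8C, across genes that are not independent replicates. Between different lines in DMSO the correlations were 0.945 (ZNF and BBC), 0.895 (BCRF8C and BBC) and 0.900 (BCRF8C and ZNF). Cct2 made up 22.9%, 20.02% and 23.2% of the summed TRiC FPKM with BGJ398, against 22.0%, 18.6% and 21.1% with DMSO. Cct2 was above its DMSO position relative to the TRiC mean in each line, by a mean log2 difference of 0.16 ± 0.04 (SD, n = 3 lines). Cct3 was below its DMSO position in each line, by -0.31 in BBC, -0.15 in ZNF and -0.09 in BCRF8C. Cct7 had the widest spread, with relative changes of 0.21, -0.15 and -0.68, and its share was 6.60%, 5.92% and 4.63% with BGJ398 against 5.94%, 6.77% and 7.73% with DMSO. Cct6a moved by -0.59 relative to the TRiC mean in BBC, against -0.02 in ZNF and 0.14 in BCRF8C. The most abundant subunit exceeded the least abundant by 3.47-fold, 3.38-fold and 5.02-fold with BGJ398, and by 3.70-fold, 2.75-fold and 3.05-fold with DMSO.

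HSP60 and HSP10 transcripts moved together in ZNF and BCRF8C. There was 0.440, 0.636 and 0.429 FPKM of Hspd1 per FPKM of Hspe1 with BGJ398 in BBC, ZNF and BCRF8C, against 0.682, 0.649 and 0.444 with DMSO. The log2 ratio of Hspd1 to Hspe1 thus changed by -0.63 in BBC, against -0.03 in ZNF and -0.05 in BCRF8C, a mean of -0.24 ± 0.34 (SD, n = 3 lines), which is less than the spread over lines. Relative to the TRiC mean, Hspd1 changed by -1.29 in BBC, 0.15 in ZNF and 0.03 in BCRF8C. Hspe1 changed by -0.66, 0.18 and 0.08 on the same scale. In BBC the log2 level of Hspd1 minus the TRiC mean was -1.55 with BGJ398 and -0.25 with DMSO, and that of Hspe1 was -0.36 with BGJ398 and 0.30 with DMSO. The shifts in ZNF and BCRF8C were smaller and upward.

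**Figure D4:**
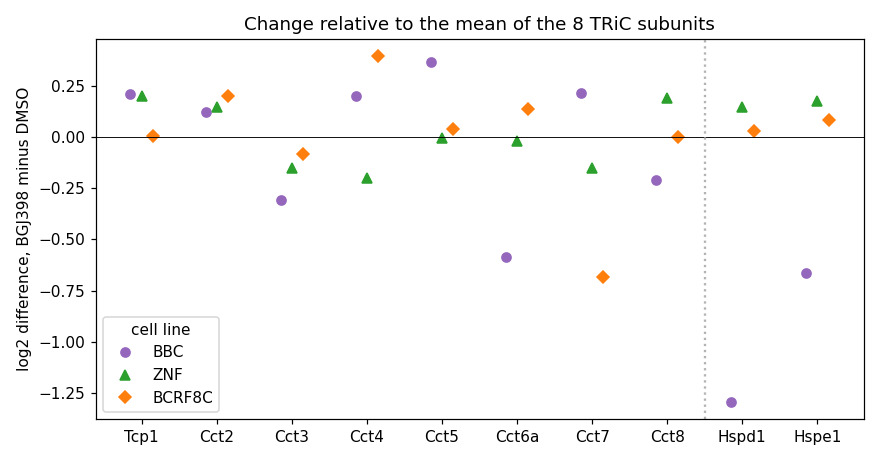
Change of each gene relative to the mean of the 8 TRiC subunits (log2 difference, BGJ398 minus DMSO), 1 point per line; the dotted line sets Hspd1 and Hspe1 apart. Most points lie within 0.40 of 0, and the farthest are Hspd1 in BBC at -1.29, Cct7 in BCRF8C at -0.68 and Hspe1 in BBC at -0.66.

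In DMSO the order of mean levels over the 3 lines was Hspe1, Cct2, Tcp1, Cct5, Hspd1, Cct6a, Cct3, Cct8, Cct4 and Cct7. The means ran from 523 ± 316 FPKM for Hspe1 and 404 ± 26.1 FPKM for Cct2 to 135 ± 24.2 FPKM for Cct7 (SD, n = 3 lines). Of the 9 gaps between neighbours in this order, only that of Cct2 over Tcp1, 61.7 FPKM, was larger than the larger SD of its pair, 50.1 FPKM. TRiC levels in DMSO differed little between lines. All 10 members were higher in ZNF than in BBC, as were 44.7% of all genes. Between these lines 0 of 10 members were at least 2-fold apart, against 28.4% of all genes, and Hspe1 was 1.67-fold and Cct4 1.66-fold higher in ZNF. Of the 10 members 6 were higher in BCRF8C than in BBC, against 49.9% of all genes. The members at least 2-fold apart between BCRF8C and BBC were Hspe1, 3.36-fold higher in BCRF8C, and Hspd1, 2.19-fold higher, against 30.9% of all genes. Hspe1 and Hspd1 were higher in BCRF8C than in ZNF, against 56.1% of all genes, and each TRiC subunit was lower in BCRF8C. Hspe1 alone was at least 2-fold apart there, 2.01-fold higher, against 32.6% of all genes. Cct8 had the lowest ratio of BCRF8C over ZNF, 0.526. The lines share no replicate, so these ratios have no test. Shares of all genes between lines are over genes averaging 1 FPKM or more in the 2 libraries compared. These were 12354 genes for ZNF and BBC, 12500 for BCRF8C and BBC, and 11469 for BCRF8C and ZNF.

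Genes that work with TRiC were lower in part, where 30.2% of all genes fell. In prefoldin, which hands unfolded actin and tubulin to TRiC, 4 of 5 members measured fell and 0 rose, with a median log2 ratio of -1.46, against -0.69 for all genes. Pfdn4 averaged -1.68 ± 0.50 and Pfdn1 -1.59 ± 0.76, while Pfdn5, at -1.21 ± 0.61, did not pass (adjusted p = 0.0652). Among TRiC and tubulin cofactors 4 of 8 fell and 0 rose (median -1.09), against 30.2% of all genes, among them the tubulin cofactor genes Tbca at -1.94 ± 0.25 and Tbcb at -1.56 ± 0.88 and the phosducin-like gene Pdcl3 at -1.14 ± 0.30. Among TRiC substrates 9 of 16 fell and 0 rose (median -1.59), against 30.2% of all genes. The alpha-tubulin gene Tuba1b had 24.3, 117 and 38.1 FPKM with BGJ398, against 333, 673 and 328 FPKM with DMSO, a mean log2 ratio of -3.10 ± 0.61. Its groups were far apart, and its mean ratio was lower than that of any chaperonin gene. Tuba1c averaged -2.36 ± 0.70, and the actin genes Actb, at -2.04 ± 0.68, and Actg1, at -1.46 ± 0.90, did not pass (adjusted p = 0.0686 and 0.0569).

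The chaperonin-like genes of the Bardet-Biedl syndrome group, distant relatives of TRiC that help assemble a cilium transport complex, had 2 of 3 members fall and 0 rise (median -1.15), against 30.2% of all genes that fell. Mkks averaged -1.65 ± 0.79, and Bbs12, at 1.96 to 3.07 FPKM with BGJ398 and 3.23 to 9.44 FPKM with DMSO, averaged -1.15 ± 0.72. In the cytosolic HSP70 and HSP90 systems 15 of 19 fell and 0 rose (median -1.68), against the same 30.2%. Fkbp4, an HSP90 cochaperone, averaged -2.66 ± 1.20, Hspbp1, an HSP70 cochaperone, -2.33 ± 0.96, the HSP90 genes Hsp90ab1 -2.17 ± 0.94 and Hsp90aa1 -2.08 ± 0.83, while the constitutive HSP70 gene Hspa8, at -1.64 ± 0.87, did not pass (adjusted p = 0.0722). Of the genes of mitochondrial HSP70, protein import and proteases, 18 of 19 fell and 0 rose (median -1.80), again against 30.2%. Hspa9, the mitochondrial HSP70, had 24.2, 86.5 and 44.2 FPKM with BGJ398, against 254, 201 and 261 FPKM with DMSO, so its groups did not overlap. It averaged -2.36 ± 1.08, and the import gene Timm50 averaged -2.36 ± 0.80.

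Among heat shock factors and stress-induced chaperones 3 of the 5 genes with an entry fell and 0 rose (median -0.95), against 30.2% of all genes. Of the 10 genes listed, Hspa1a, Hspb1, Hspb8, Cryab and Bag3 had no entry, so most stress-induced chaperones of the list were not measured. Hsf1, which encodes heat shock factor 1, had 3.03, 8.93 and 2.64 FPKM with BGJ398, against 12.4, 14.6 and 14.5 FPKM with DMSO, and averaged -1.49 ± 0.75. Chordc1, a partner of HSP90, averaged -1.37 ± 0.46. Of the ER chaperones 9 of 12 fell and 0 rose (median -1.58), against 30.2% of all genes, with Sdf2l1 at -2.51 ± 0.76 and Hyou1 at -2.13 ± 0.73. With the trend on expression removed the medians were -0.61 for the mitochondrial list, -0.58 for the Bardet-Biedl list, -0.50 for HSP70 and HSP90, -0.39 for TRiC substrates, -0.14 for ER chaperones, -0.13 for the cofactors, -0.06 for prefoldin and 0.02 for the heat shock list, against -0.62 for the 10 chaperonin genes and 0.03 for all genes. With the trend removed or with BBC left out, 0 genes of any list passed, as 0 of all genes did (limma, 3084 and 2991 at an unadjusted p under 0.05). No list was tested as a set.

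Start sites of chaperonin genes often lie close to another gene's. In the GENCODE vM21 annotation of GRCm38, 7 of the 10 members have a neighbour on the opposite strand that starts within 1000 bases. The share was 15.8% of the 12635 protein-coding entries of the table with a match there. Whether the genes of a pair point away from each other or overlap was not part of this count. Tcp1 is paired with Mrpl18, a mitochondrial ribosome gene whose start is 644 bases away. Mrpl18 had 9.75, 35.2 and 25.1 FPKM with BGJ398, against 59.0, 77.1 and 86.8 FPKM with DMSO, and fell by 1.78 ± 0.69 on the log2 scale (adjusted p = 0.0348). Psph, which encodes the last enzyme of serine synthesis and starts 451 bases from Cct6a, had 9.50, 9.15 and 3.68 FPKM with BGJ398, against 78.9, 31.0 and 33.2 FPKM with DMSO (mean log2 ratio -2.49 ± 0.72, adjusted p = 0.0348). Pradc1, 456 bases from Cct7, had 1.26, 5.69 and 1.84 FPKM with BGJ398, against 10.3, 13.1 and 8.40 FPKM with DMSO (-1.71 ± 0.62, adjusted p = 0.0348). Tsacc, 117 bases from Cct3, and Fam173b, 48 bases from Cct5, were low and did not pass, at -0.48 ± 0.64 and -0.65 ± 0.24. Hspd1 and Hspe1 are each other's neighbour, with starts 111 bases apart in this annotation and 216 in RefSeq for 1 of the 2 Hspd1 starts. The table gives Tcp1 1 shared locus with Mrpl18, Acat3 and SNORA29, and Cct6a 1 with SNORA22 and 1 further entry. That entry had 0, 27.7 and 0.001 FPKM with BGJ398 in BBC, ZNF and BCRF8C, against 197, 276 and 115 FPKM with DMSO. Exactly 0.001 is also listed for Lyz2 in BCRF8C with DMSO, and such a value may not be a measured level. Cct7 shares a locus with Pradc1, Cct8 with Usp16, and Hspd1 with Hspe1. Reads could be split between the genes of a locus where they overlap, which was not tested. Whether the counting used strand is not given in the sources used here.

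Many genes followed the chaperonin pattern. Over the 6 libraries the members' own log2 levels correlated with their mean at 0.892 for Hspe1 to 0.996 for Cct6a. The 5 most alike of 5323 other genes that averaged 10 FPKM or more were Rnf220, Smu1, Fbl, Thap11 and Eef1g, each at Pearson's r = 0.999 with the mean of the 10. Fbl, which encodes the nucleolar protein fibrillarin, had 3.70, 31.8 and 7.63 FPKM with BGJ398, against 50.5, 75.9 and 75.0 FPKM with DMSO, and Eef1g, a translation elongation factor gene, had 38.9, 234 and 71.8 FPKM with BGJ398, against 324, 460.2 and 405 FPKM with DMSO. The correlation reached 0.95 for 1147 of these genes (21.5%), and its median over them was 0.853, so a high value does not set a gene apart here. The 6 libraries share their lines and agents.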

How the data were processed

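The authors deposited 1 table of FPKM values for 17169 gene entries and 6 libraries of total RNA. The tools named in the submitters' processing notes are bcl2fastq and TopHat2 2.0.12, and the build is NCBIM37. How FPKM were estimated, on which annotation, with what strandedness and at what depth is not given in the sources used here. No steps of whole reads were found in low values (strongest periodicity 0.0762 to 0.283), so no counting interval was computed. Entries can be listed at 0 where an estimate failed. Loci are the table's, with starts raised by 1. Every value column was matched to a sample by its title, and 0 were left unmapped.

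Values were analysed as log2(FPKM + 1). The 14232 genes averaging 1 FPKM or more were tested with limma (version 3.58.1, R 4.3.3) with the line as a block and a variance trend. Tests were two-sided with 2 residual degrees of freedom, with Benjamini-Hochberg adjustment over all genes and calls under 0.05. With 3 pairs an exact permutation of signs gives at best p = 0.25. The spread behind each p is that between 3 lines, drawn by limma toward a trend over all genes tested. The p of a gene thus does not rest on its own 3 ratios and 2 degrees of freedom alone. The line pairs the libraries: deviations from the group means correlated at 0.454, 0.541 and 0.549 within a line and at -0.358 to -0.179 between lines. The deposited scale was set beside quantile normalization, median-of-ratios scaling and removal of the trend on expression (loess, span 0.3). The test was run on simulated data first. Those data held no shift of whole libraries or by expression level, so that run cannot tell whether the calls hold here. The text names all 10 members, the 2 genes of each list with the lowest mean ratio among those called and a few list members singled out after their values were seen (Pfdn5, Pdcl3, Actb, Actg1, Hsp90ab1, Hsp90aa1, Hspa8), the close neighbours and the 5 genes most alike. Members and lists were chosen with earlier results of these data known. Genes of a list with no entry, such as Pfdn6, were not analysed here. Not every marker is reported here.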

Additional observations from a re-analysis of the deposited data

Results flagged for a closer look

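In 6 of the 10 members the change relative to the mean of the TRiC subunits (log2, BGJ398 minus DMSO) went in opposite directions in 2 lines, by at least 0.1 each way. Cct4 changed by 0.39 in BCRF8C and -0.20 in ZNF. Cct6a changed by 0.14 in BCRF8C and -0.59 in BBC. Cct7 changed by 0.21 in BBC and -0.68 in BCRF8C. Cct8 changed by 0.19 in ZNF and -0.21 in BBC. Hspd1 changed by 0.15 in ZNF and -1.29 in BBC, and Hspe1 by 0.18 in ZNF and -0.66 in BBC. Each line has 1 library per agent, so these differences were not tested.

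Pseudogene entries of Hspe1, which are not named above, stood above their DMSO level in some lines. Hspe1-ps6 and Hspe1-ps3 passed the filter on low values and so counted among all genes tested. Hspe1-ps5 had 2.95 FPKM with BGJ398 in BBC and 1.79 FPKM in BCRF8C, against 0 and 0.421 FPKM with DMSO. Hspe1-ps6 had 1.91 FPKM with BGJ398 in ZNF and 6.35 FPKM in BCRF8C, against 1.06 and 1.49 FPKM with DMSO. Hspe1-ps3 had 2.08 FPKM with BGJ398 in ZNF and 9.01 FPKM in BCRF8C, against 1.14 and 1.53 FPKM with DMSO. In BBC, by contrast, Hspe1-ps3 was listed at 0 with BGJ398, against 1.47 FPKM with DMSO, and Hspe1-ps6 had 2.68 FPKM with BGJ398, against 2.75 FPKM with DMSO. Genes of low level rose as a class, with median log2 ratios of 0.32, 0.60 and 0.96 in BBC, ZNF and BCRF8C at a mean log2(FPKM + 1) near 1.25. Near 1.75 the medians were -0.21, 0 and 0.08. Reads of near-identical copies can be split between a gene and its pseudogenes, which was not tested. The Hspe1 gene itself lay at 23.6 FPKM or more in every library.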

How the results depend on the processing

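As deposited, 5236 genes and all 10 members were called. Scaling moved these counts: 4 genes and 0 members after median-of-ratios scaling (limma, 5764 genes and 10 members at an unadjusted p under 0.05; members' adjusted p from 0.0527 to 0.0677), 3 genes and 0 members after quantile normalization, and 0 genes and 0 members with the trend removed. Without the line as a replicate block 7 genes and 0 members were called (5679 genes and 10 members at an unadjusted p under 0.05). Leaving out 1 line gave 0 to 4974 genes and 0 to 10 members: 0 and 0 without BBC (2991 genes and 2 members at an unadjusted p under 0.05), 4974 and 10 without ZNF, and 1648 and 1, Hspd1, without BCRF8C. The members' median log2 ratio of -2.19 was -0.82 after quantile normalization and -0.62 with the trend removed, and -2.78 (without ZNF) to -1.72 (without BBC) with a line left out. Members at least 2-fold lower within a line numbered 5 in BBC with the trend removed, 1, 0 and 0 in ZNF after median-of-ratios scaling, quantile normalization and trend removal, and 2 and 1 in BCRF8C after quantile normalization and trend removal. The cause of these shifts was not tested. The change of Hspd1 relative to Hspe1, -0.24, was -0.04 without BBC. Each member's mean ratio was below 0 under every alternative run. Changes of filter, block or variance trend cannot alter that ratio, so those runs do not check it. With the trend removed Tcp1 and Cct8 were above 0 in ZNF, at 0.02 and 0.03. Other values crossed 0. Relative to the TRiC mean, Cct6a changed by -0.16 and by 0.06 without BBC, Cct8 by -0.01 and by 0.09 without BBC and 0.002 on the log2(FPKM + 1) scale, Cct7 by -0.21 and by 0.03 without BCRF8C, and Cct4 by 0.13 and by -0.002 without BCRF8C. The median of all genes was -0.69, and 0.03 with the trend removed. A pseudocount of 0.1, no filter, a filter at 5 FPKM, no variance trend and only entries above 0 in all 6 libraries left all 10 members called. Of all genes these settings called 5122, 5295, 5225, 4805 and 7287, in that order. Depth is unknown, so how far counting error limits these values could not be given.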
